A study of Mus musculus with 93 samples.

Results

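A set of 8 genes that encode proteins secreted by the liver was followed in whole-liver RNA-seq of 93 male mice: Angptl4, Angptl8, Ahsg, Fetub, Rbp4, Selenop, Lect2 and Enho. They were taken by name as hepatokines, that is, liver proteins that act on other tissues, and they are 8 of the 53465 genes in the count table. All 8 were among the 19110 genes that passed the filter on low counts. The mice came from 7 inbred strains, of which C57BL/6J, DBA/2J, A/J, 129S1/SvImJ and WSB/EiJ are M. m. domesticus, CAST/EiJ is M. m. castaneus and PWK/PhJ is M. m. musculus. The groups differed in strain and diet and received no other treatment that the labels name. The labels also give a cohort, with 2 or 3 cohorts per strain. Strains fell into partly different cohorts, and those of WSB/EiJ held no other strain. Where strains share no cohort, differences in level between them cannot be told apart from differences between cohorts. Every mouse was housed at 30 °C (thermoneutrality) from 6 wk of age, and from 7 wk was fed a Western diet (WD, 40% of energy from fat) or a control diet (CD, 10%) for 17 wk. Livers were taken at 24 wk after a 4-h fast. The CD and WD groups held 8 and 8 C57BL/6J, 6 and 7 DBA/2J, 5 and 6 A/J, 7 and 6 129S1/SvImJ, 6 and 6 WSB/EiJ, 7 and 8 CAST/EiJ, and 6 and 7 PWK/PhJ mice.

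The liver releases most plasma proteins, and a subset of them act as signals. ANGPTL4 and ANGPTL8 restrain lipoprotein lipase, the enzyme that frees fatty acids from circulating triglycerides: ANGPTL4 rises with fasting under the fatty acid sensor PPAR-alpha, and ANGPTL8 rises with feeding and insulin. Fetuin-A (Ahsg) and fetuin-B (Fetub) are cystatin-like glycoproteins, RBP4 carries retinol, selenoprotein P (Selenop) carries selenium, LECT2 is a chemotactic protein made under beta-catenin signalling, and adropin (Enho) is a short peptide tied to energy balance.

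Each library held 40020424 to 49894856 reads assigned to genes (median 46618609), and all were mapped to the C57BL/6J genome. The share of unmapped reads ran from 1.66% to 14.8% per library, with the highest group means in CAST/EiJ (10.8% on CD and 13.3% on WD). The group mean was higher on WD in 5 strains, by most in PWK/PhJ (3.50% on CD and 7.88% on WD) and WSB/EiJ (4.52% and 7.42%), and lower in DBA/2J (6.45% and 4.77%) and A/J (2.25% and 2.11%). Liver identity was plain: all 13 hepatocyte markers were detected in every strain, and their summed level had group medians of 89277 to 220409 CPM (reads of a gene relative to its TMM-scaled library size). Hepatocyte markers themselves were lower on WD, with 4 to 8 of 13 called lower and at most 1 higher per strain. Of all genes, 3.97% to 14.5% were called lower and 4.39% to 15.1% higher per strain. Macrophage markers were called higher for 9 of 13 in 129S1/SvImJ and PWK/PhJ, for 7 in C57BL/6J and for at most 3 in each of the other strains. The part of such shifts in the results was not tested, and in bulk tissue fewer cells of a type and less RNA per cell cannot be told apart. The libraries of 3 mice (1 C57BL/6J and 2 CAST/EiJ, all CD) correlated better with the other diet of their strain than with their own group. Their mean r was nonetheless low with both. It was -0.193 with the own group and -0.0711 with the other diet in C57BL/6J. In CAST/EiJ it was -0.0887 and -0.0120 for 1 mouse and -0.118 and 0.00289 for the other. Closer to the other diet thus means less unlike it, not alike. The calls for the 8 genes in those strains are given with and without these libraries.

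Diet changed 30 of the 56 combinations of gene and strain (limma-voom, adjusted p below 0.05). Ahsg was lower on WD in 6 strains and Enho in 5. Estimates were negative in all 7 strains for Ahsg, Enho and Rbp4, though that of Enho in PWK/PhJ rested on 7 to 23 reads per mouse. Angptl8 fell in 5 strains and was higher in CAST/EiJ, Rbp4 fell in 4, and Lect2 rose in 5. Fetub fell in PWK/PhJ, Angptl4 in CAST/EiJ, and Selenop fell in WSB/EiJ and rose in DBA/2J.

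Read against all genes tested, the counts per strain were as follows. In C57BL/6J, 3 of the 8 genes fell where 11.9% of all genes did, and 1 rose against 14.3%. In DBA/2J, 4 fell (7.77% of all genes) and 2 rose (10.2%). In A/J, 4 fell against 4.64%, and 0 rose against 4.39%. In 129S1/SvImJ, 4 fell (13.6%) and 1 rose (14.5%). In WSB/EiJ 3.97% of all genes were lower and 4.97% higher, and 4 of the 8 fell and 1 rose. In CAST/EiJ, 1 fell (9.73%) and 2 rose (9.77%). In PWK/PhJ, 3 fell (14.5%) and 0 rose (15.1%). The 0 counts of A/J and PWK/PhJ were also 0 at an unadjusted p below 0.05, with edgeR and with DESeq2. Counts of falls thus lay above the background in 6 strains and near it in CAST/EiJ, and rises numbered at most 2 of the 8. The genes were chosen by name with earlier results of these data known, so this describes the list and is not a test.

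**Figure D1:**
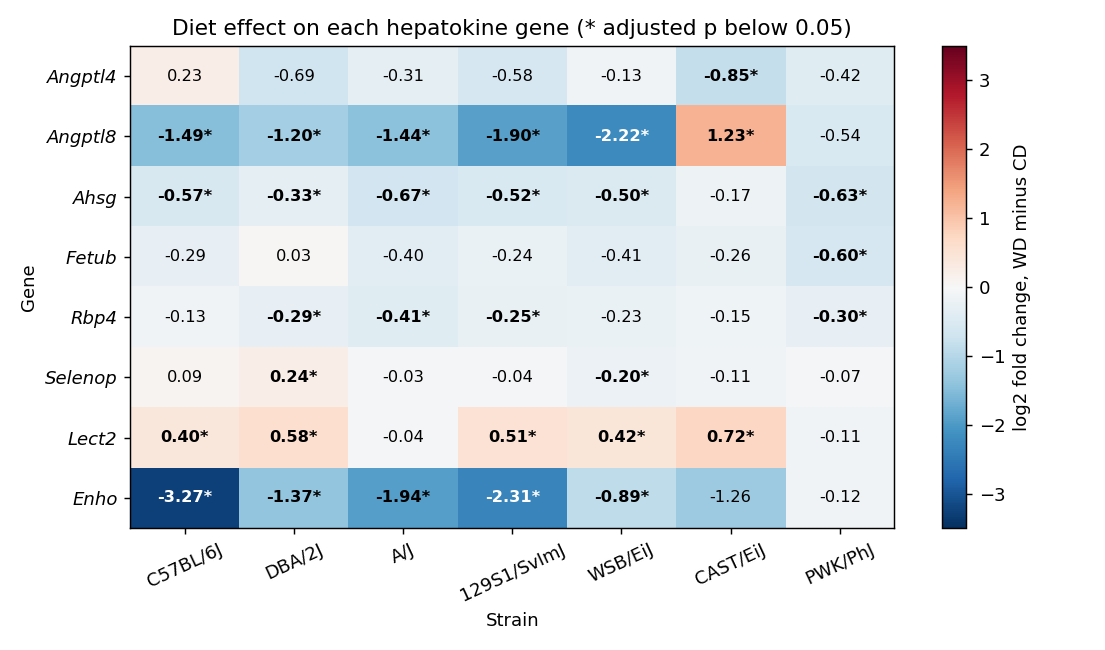
Diet effect (log2 fold change, WD minus CD) of each gene (vertical axis) in each strain (horizontal axis), with the number printed in its cell and on the colour scale; an asterisk marks an adjusted p below 0.05 (limma-voom). Blue cells dominate the rows of Angptl8, Ahsg and Enho, Lect2 is red in 5 strains, and Angptl8 is blue in 6 strains and red in CAST/EiJ (1.23).

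Whether the 7 strains responded unequally was tested per gene with an F test on the 7 diet effects. It was called for 5 of the 8 genes (37.5% of all genes): Angptl8 (adjusted p = 0.000214), Selenop (0.000394), Lect2 (0.00122), Enho (0.00343) and Ahsg (0.0274). For Fetub (0.137), Angptl4 (0.322) and Rbp4 (0.423) an unequal response was not shown. Each strain was then set against the mean of the other 6. CAST/EiJ departed in 3 genes (14.5% of all genes called in that comparison), namely Angptl8, Lect2 and Ahsg. C57BL/6J departed in 1 (4.69%), Enho. DBA/2J departed in 1 (7.77%), Selenop. PWK/PhJ departed in 1 (16.3%), Lect2. In A/J (0.466%), 129S1/SvImJ (6.28%) and WSB/EiJ (0.947%) limma-voom called 0, with 1, 0 and 3 genes at an unadjusted p below 0.05; edgeR called 0 in each, and DESeq2 called 1 in WSB/EiJ.

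**Figure D2:**
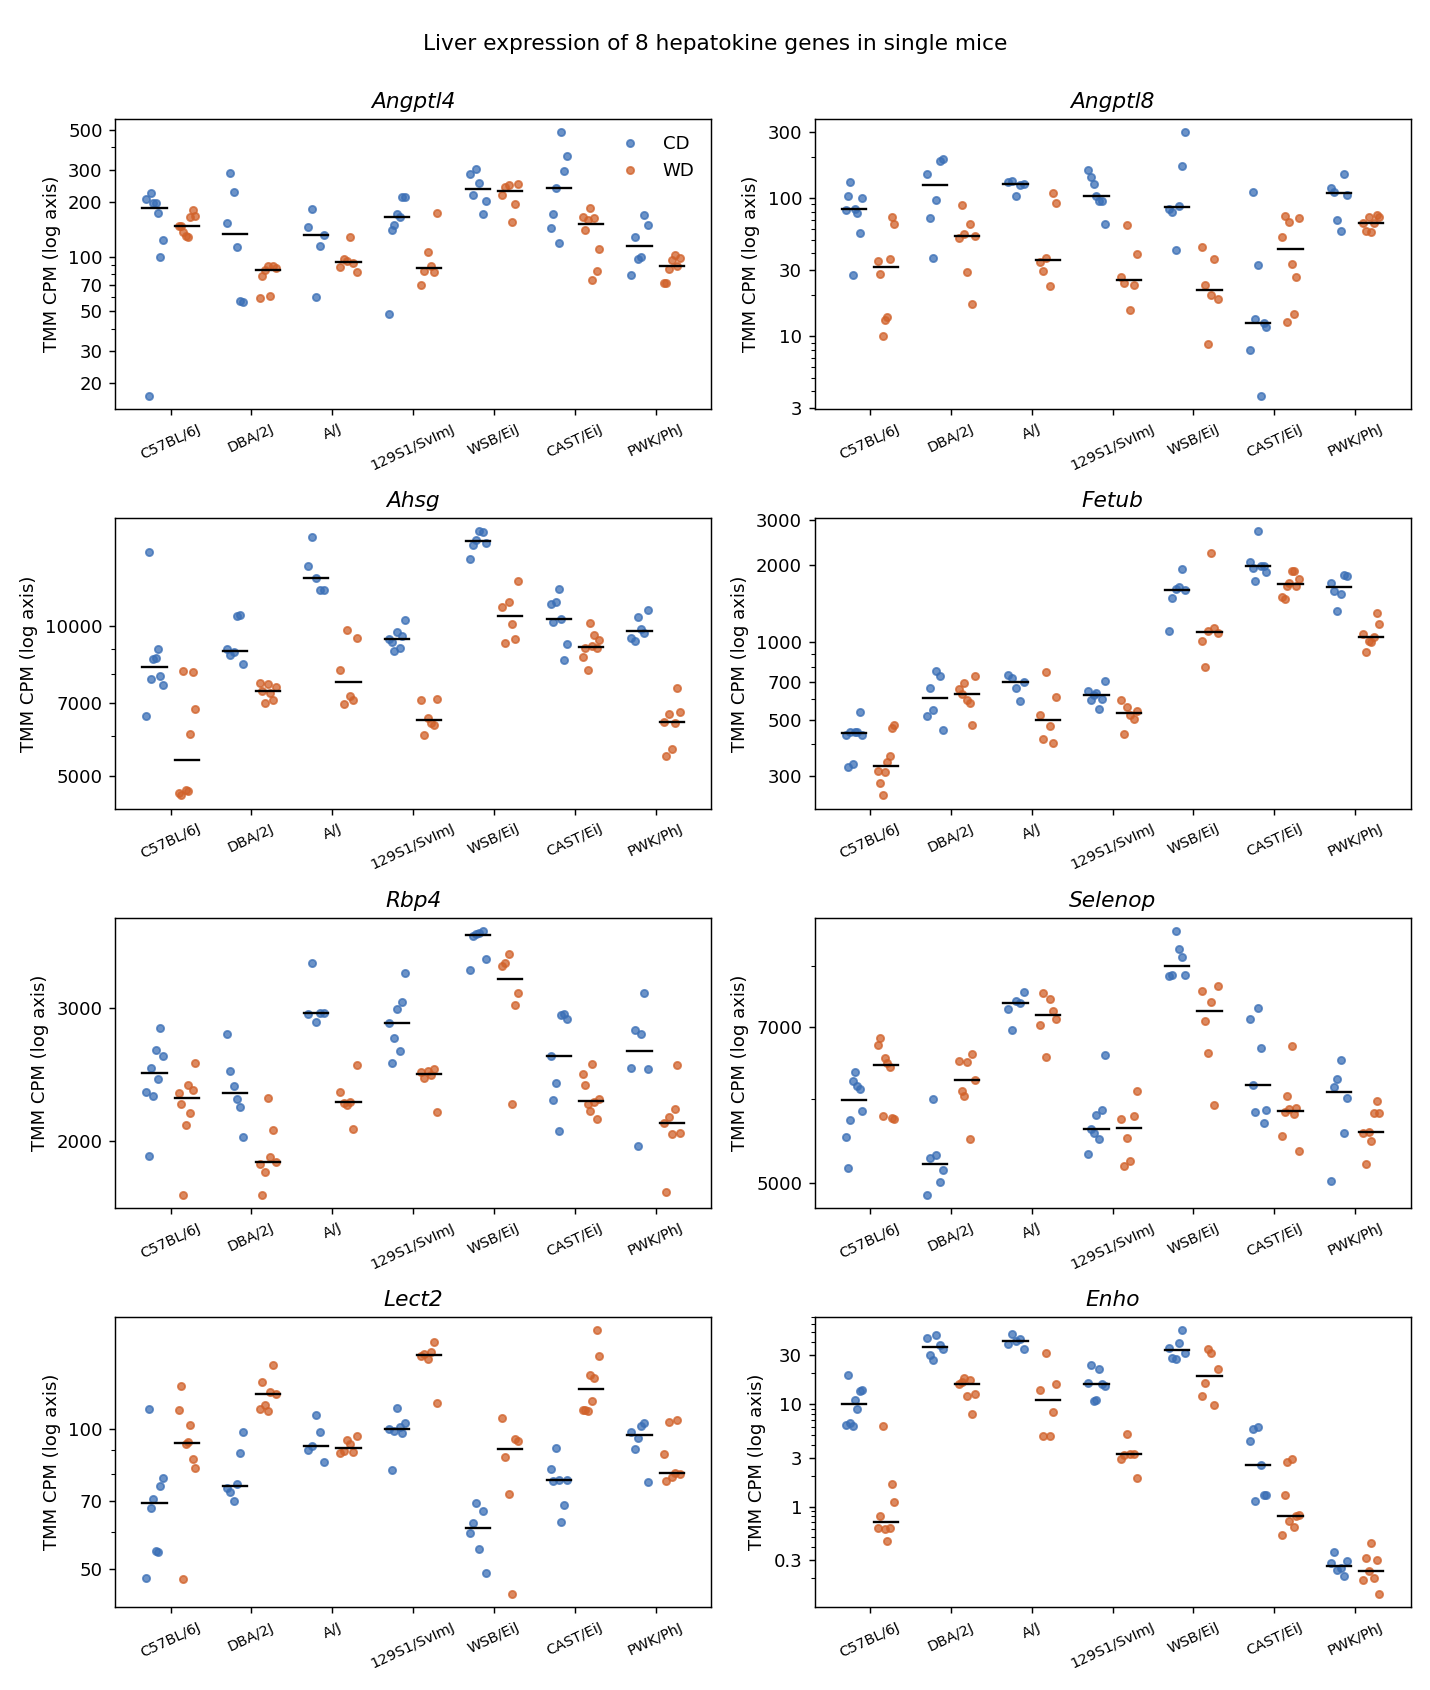
Level of each gene in every mouse (TMM CPM, log axis, 1 panel per gene), by strain (horizontal axis) and diet (CD blue, WD orange), with a black bar at the group median. Enho spans from a median of 40.9 CPM in A/J on CD to 0.235 in PWK/PhJ on WD, Fetub lies in a low group of 4 strains and a high group of 3, and Angptl8 on CD runs from a median of 12.4 CPM in CAST/EiJ to 127 in A/J.

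The 2 lipoprotein lipase regulators were the least abundant but for Enho once exon length was taken into account, at 70.1 CPM per kb for Angptl8 and 40.2 for Angptl4 (median of the 14 group means). Angptl8 (chr9:21835510-21837347, plus strand, GRCm38) lies inside an intron of Dock6 on the opposite strand and shares 0 exon bases with it. On CD it ran from 27.6 to 131 CPM in C57BL/6J (median 83.1), and on WD from 10.1 to 72.7 (median 31.6). In 129S1/SvImJ the CD mice lay between 64.8 and 160.1 CPM (median 104) and the WD mice between 15.5 and 63.6 (median 25.7). Only in this strain did the diets not overlap, every CD mouse lying above every WD mouse. WSB/EiJ spanned 42.4 to 302 CPM on CD (median 85.9) and 8.75 to 44.1 on WD (median 21.7), a narrow overlap of the lowest CD and highest WD mouse. The 5 A/J mice on CD held 131, 133, 104, 125 and 127 CPM. Of the 6 on WD, the 4 of 1 cohort ran from 23.2 to 36.8 and the 2 of the other held 92.6 and 108, so that 1 of them reached into the CD range. DBA/2J fell from a median of 124 CPM (36.9 to 192) to 52.9 (17.0 to 89.5).

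Expressed as diet effects, Angptl8 fell most in WSB/EiJ (log2 fold change -2.22, SE 0.48, adjusted p = 0.000723) and in 129S1/SvImJ (-1.90, SE 0.45, adjusted p = 0.000758). By cohort the differences were -3.13 and -1.77 in WSB/EiJ, the -3.13 in its smaller cohort, and -2.04 and -1.85 in 129S1/SvImJ. The falls in C57BL/6J (-1.49, adjusted p = 0.00331; -1.42 and 0.00329 without the 3 libraries), A/J (-1.44, 0.047) and DBA/2J (-1.20, 0.0489) were of like size. PWK/PhJ, with medians of 108 and 66.1 CPM, did not pass (-0.54, 95% interval -1.42 to 0.34, adjusted p = 0.392). Within the labelled cohorts of each strain, the WD mean was lower in 12 of 15 strata, and the other 3 were those of CAST/EiJ. The A/J call was lost with edgeR (adjusted p = 0.12), with DESeq2 (0.109), with cohort (0.11) or RIN (0.0548) in the model, with upper-quartile scaling (0.053) and without any 1 of its 5 CD mice (0.0615 to 0.0921). The DBA/2J call was lost with RIN in the model (adjusted p = 0.0606), with upper-quartile scaling (0.0502) and without any 1 of the A/J CD mice (0.0504 to 0.0509).

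CAST/EiJ stood apart in Angptl8. On CD its mice ran from 3.69 to 110.2 CPM with a median of 12.4, and on WD from 12.6 to 73.9 with a median of 43.0. The diets overlapped, since 1 CD mouse at 110.2 CPM, whose library was among the 3 closer to the other diet, lay above every WD mouse, while the next highest CD mouse held 32.9. The CD level was below that of C57BL/6J, the next strain in order (adjusted p = 1.02e-05 for the pair), and no difference was called between other neighbours in the order. The diet effect was 1.23 (SE 0.46, adjusted p = 0.0494). This call rested on the settings and was lost with edgeR (0.69, adjusted p = 0.281), DESeq2 (0.68, 0.265), cohort (1.16, 0.0694) or RIN (1.17, 0.0619) in the model, a fit of CAST/EiJ alone (1.22, 0.171), no count filter (1.22, 0.221), and without 1 of the CAST/EiJ CD mice (1.06, 0.0994), any 1 of the A/J CD mice (1.22, 0.0521 to 0.0527) or 1 WSB/EiJ WD mouse (1.23, 0.0511). Without the 3 libraries that lay closer to the other diet it was 1.59 (adjusted p = 0.0137). The departure from the other 6 strains was firmer, at 2.69 (SE 0.50, adjusted p = 6.66e-05), and was called under every alternative that gave it (2.09 to 3.16). Dock6, read from the other strand of the same locus, was called lower in 129S1/SvImJ (-0.29) and WSB/EiJ (-0.36) and was at 17.4 to 40.6 CPM in the group means; its correlation with Angptl8 was r = 0.478 over 93 mice after subtracting group means. Whether counting used the strand is not stated in the sources used here, and the part of Dock6 reads in Angptl8 was not tested.

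Lipogenic genes, which build fatty acids, are induced by insulin as ANGPTL8 is. Of 18 genes listed as lipogenic, 11 were lower on WD in WSB/EiJ (median log2 fold change -0.93, against -0.01 to 0.02 for all genes in the 7 strains). Those lower numbered 10 in PWK/PhJ, 7 in C57BL/6J, 8 in 129S1/SvImJ, 6 in CAST/EiJ, 4 in A/J and just 2 in DBA/2J. Those higher numbered 1 to 4. The shares of all genes were 3.97% to 14.5% lower and 4.39% to 15.1% higher per strain. Acly, which supplies cytosolic acetyl-CoA, fell in 6 strains, all but DBA/2J, and from -0.85 in CAST/EiJ to -1.75 in PWK/PhJ. Txnip, a glucose-sensitive gene, also fell in 6 strains, all but PWK/PhJ. CAST/EiJ had Acly and Txnip among the 6 lower (-0.85 and -1.32) and 4 of the 18 higher, and Angptl8 was not lower. Among 10 LXR targets, the sterol-sensing set, 6 rose and 1 fell in C57BL/6J, 5 and 1 in CAST/EiJ, and 5 and 2 in PWK/PhJ. A/J had 4 higher and 0 lower, WSB/EiJ 3 and 0, DBA/2J 2 and 1, and 129S1/SvImJ 1 and 2. Abcg5, a sterol exporter, rose in 6 strains. Over the 93 mice after subtracting group means, the genes most like Angptl8 were Ppp1r3c (r = 0.713), a glycogen-targeting subunit of protein phosphatase 1, Hes1 (0.657) and Galt (0.652); with Fasn r was 0.331.

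Angptl4 (chr17:33773750-33781830, minus strand) varied widely between mice of a group. C57BL/6J held 17.0, 185 and 224 CPM (lowest, median and highest) on CD and 128, 148 and 179 on WD. The lowest CD mouse was 1 of the 3 that lay closer to the other diet: with it the estimate was 0.23 and without it -0.17, neither called. CAST/EiJ held 118, 239 and 487 CPM on CD and 74.1, 150.2 and 185 on WD. Its diets overlapped, but the 4 highest mice were all CD mice, and the fall was called (-0.85, SE 0.31, adjusted p = 0.0411). The WD mean was lower in 2 of its 3 cohorts, with differences from -1.28 to 0.12. The fall was -1.08 (adjusted p = 0.00178) without the 3 libraries, and was lost in a fit of CAST/EiJ alone (adjusted p = 0.0619) or without the count filter (0.084). In DBA/2J, CD mice ran from 56.3 to 289 CPM and WD mice from 59.4 to 89.2 (-0.69, adjusted p = 0.142; edgeR -0.94, 0.0193; DESeq2 -0.93, 0.0136). A/J (-0.31), 129S1/SvImJ (-0.58), WSB/EiJ (-0.13) and PWK/PhJ (-0.42) were not called. WSB/EiJ had the highest mean on WD, 218 ± 37.3 CPM (SD, n = 6), against 78.1 ± 12.8 in DBA/2J (n = 7).

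The PPAR-alpha targets, to which Angptl4 belongs, moved with it in CAST/EiJ: 9 of 18 were lower on WD there (median -0.57), with Pdk4, the kinase that shuts off glucose oxidation, at -3.26 (SE 0.73, adjusted p = 0.0005) and Fgf21, a fasting hepatokine, at -2.16 (SE 0.69, adjusted p = 0.0178). In each of the other 6 strains at most 2 of 18 were called in either direction. Of all genes, 9.73% were lower in CAST/EiJ, and per strain 3.97% to 14.5% were lower and 4.39% to 15.1% higher. Fgf21 also fell in C57BL/6J (-2.08) and A/J (-1.95), where Angptl4 was not called. Over the 93 mice within groups Angptl4 was most like Lgals4 (r = 0.822), the carnitine carrier Slc22a5 (0.781) and the fatty acid oxidation enzyme Eci2 (0.78), and r was 0.65 with Cpt1a, which carries fatty acids into oxidation. Adipose tissue also expresses Angptl4: the 6 adipocyte markers tested of 8 summed to 29.3 to 168 CPM in CAST/EiJ on CD and 30.8 to 46.2 on WD, with 1 of 6, Cidec, lower (-1.76). Adipoq had group means of 0.0897 to 0.835 CPM, and its r with Angptl4 was 0.00931; the part of adipocyte RNA in the result was not tested. Of 17 lipoprotein lipase regulators in all, 8 rose and 2 fell in C57BL/6J, 5 and 5 in 129S1/SvImJ, and 2 and 5 in PWK/PhJ. Cd36, which takes up fatty acids, rose in 6 strains, all but CAST/EiJ, and Lpl itself rose most in PWK/PhJ (2.64), and also in 129S1/SvImJ (1.08) and C57BL/6J (0.84).

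The fetuins are neighbours. Ahsg (chr16:22891277-22899449) and Fetub (chr16:22918334-22939778) lie on the plus strand 18884 bases apart, and Hrg, another cystatin-domain plasma protein, starts 11293 bases beyond Fetub. Ahsg was the most abundant of the 8 genes per exon length, 4199 CPM per kb against 333 for Fetub. Its WD mean was lower in all 15 strata of strain and cohort. PWK/PhJ went from 9338, 9763 and 10751 CPM on CD (lowest, median, highest) to 5467, 6423 and 7515 on WD. In A/J the 5 CD mice all lay between 11799 and 15071 CPM and the 6 WD mice between 6969.5 and 9809.6. In WSB/EiJ the range went from 13622 to 15474 on CD to 9256 to 12290.5 on WD. The diets did not overlap in these 3 strains, nor in DBA/2J and 129S1/SvImJ. Fold changes ran from -0.67 in A/J (SE 0.11, adjusted p = 1.74e-05) and -0.63 in PWK/PhJ (SE 0.10, 7.86e-07) through -0.57 in C57BL/6J (1.26e-06), -0.52 in 129S1/SvImJ (5.04e-05) and -0.50 in WSB/EiJ (0.000729) to -0.33 in DBA/2J (0.0155). These 6 calls held under every alternative.

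CAST/EiJ was again the strain that differed for Ahsg. Its mice ran from 8549 to 11848 CPM on CD (median 10341) and from 8148 to 10125 on WD (median 9072), with overlap. The diet effect was -0.17 (95% interval -0.36 to 0.01, adjusted p = 0.211), and it lay 0.36 above the mean of the other 6 (SE 0.10, adjusted p = 0.0111). Without the 3 libraries closer to the other diet these were -0.16 (adjusted p = 0.221) and 0.36 (0.00623). In the same mice Alb, which encodes albumin, fell by 0.76 on the log2 scale. In C57BL/6J the highest CD mouse, at 14056 CPM against 8966 for the next, was again the mouse with the lowest Angptl4; without it the effect was -0.46 (adjusted p = 1.33e-05). On CD the strains ran from WSB/EiJ (14782 ± 688 CPM, SD, n = 6) and A/J (12868 ± 1361, n = 5) down to C57BL/6J (8771 ± 2259, n = 8); of neighbours in that order only A/J and CAST/EiJ were called different (adjusted p = 0.0101).

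Fetub varied much more between strains than with diet. On CD, CAST/EiJ (2039 ± 310.3 CPM, SD, n = 7), PWK/PhJ (1627 ± 187, n = 6) and WSB/EiJ (1560.0 ± 268, n = 6) were high. A/J (684 ± 62.2, n = 5), 129S1/SvImJ (622 ± 48.6, n = 7), DBA/2J (615 ± 128, n = 6) and C57BL/6J (426 ± 67.4, n = 8) were low. The 3 wild-derived strains thus lay above the 4 classical ones, and the gap between WSB/EiJ, whose lowest mouse held 1105 CPM, and A/J, whose highest held 746, was free of overlap (adjusted p = 4.71e-10). Within the low group C57BL/6J lay below DBA/2J (adjusted p = 0.000803), and within the high group CAST/EiJ lay above PWK/PhJ (0.0490). On WD the same 3 strains lay above the same 4 without overlap, the lowest mouse of the 3 at 800.0 CPM and the highest of the 4 at 762. Because all reads were mapped to the C57BL/6J genome, differences between strains in how reads map cannot be told apart here from differences in level.

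With diet, Fetub fell in PWK/PhJ from 1324, 1639 and 1819 CPM (lowest, median, highest) to 916, 1047 and 1294. The diets did not overlap (-0.60, SE 0.14, adjusted p = 0.000614). In C57BL/6J (-0.29, adjusted p = 0.0568), A/J (-0.40, 0.0751) and WSB/EiJ (-0.41, 0.063) the estimates were negative and just short of the threshold, and in DBA/2J the estimate was 0.03. A single WSB/EiJ WD mouse at 2217 CPM stood far above the other 5, which held 800.0 to 1138. Without it the WSB/EiJ effect was -0.59 (adjusted p = 0.00144), C57BL/6J (0.0323) and A/J (0.044) also passed, and the F test for unequal responses was called (adjusted p = 0.0267). Without the C57BL/6J CD mouse named above, the C57BL/6J effect was -0.34 (adjusted p = 0.0256) and the WSB/EiJ effect -0.42 (0.0441).

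The 3 neighbouring genes did not move as one. Hrg was called in PWK/PhJ alone among the 7 strains (-0.45, SE 0.10, adjusted p = 0.000322), and its estimates elsewhere ran from -0.06 in A/J to 0.21 in C57BL/6J, while Ahsg fell in 6. PWK/PhJ was the strain in which all 3 fell. Over the 93 mice after subtracting group means, r was 0.672 for Fetub with Hrg and 0.274 for Fetub with Ahsg. Fetub was most like the coagulation and matrix proteins Plg (0.793), F10 (0.771) and Vtn (0.77), and Ahsg most like Itih2 (0.725), a hyaluronan-binding plasma protein, the selenoprotein Selenos (0.587) and the kininogen Kng1 (0.585); these correlations share library, depth and liver composition. Kng1, which also carries cystatin domains, fell in 6 strains, all but DBA/2J. Of the 7 cystatin-family genes, which include both fetuins, 5 fell in PWK/PhJ, 3 in 129S1/SvImJ and WSB/EiJ, 2 in C57BL/6J, A/J and CAST/EiJ, and 1 in DBA/2J. Per strain 3.97% to 14.5% of all genes fell.

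**Figure D3:**
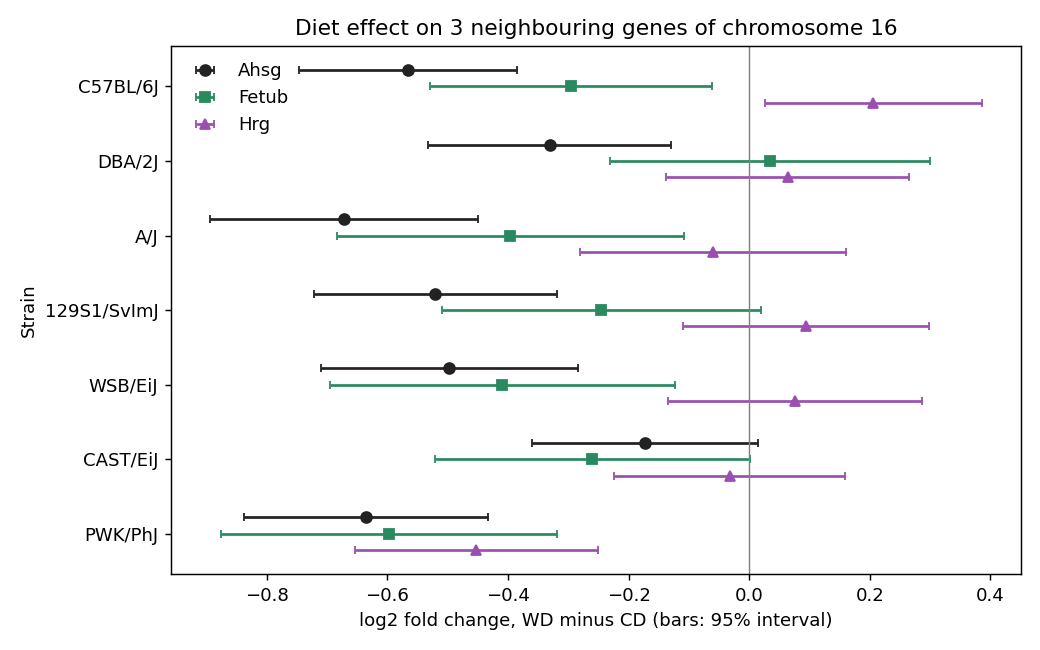
Diet effect (log2 fold change, WD minus CD, horizontal axis) of Ahsg, Fetub and Hrg in each strain (vertical axis), with 95% intervals as bars. Ahsg lies left of 0 in 6 strains with its interval clear of 0, Hrg does so in PWK/PhJ (-0.45), and Fetub lies between them in all strains but CAST/EiJ.

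The stretch before a start of Fetub is shown because Fetub has both a split between strains and a called fall. The stretch holds 2 promoter motifs. It covers the 250 bases before a RefSeq start on GRCm38.p6, chr16:22918132-22918381, plus strand, in the C57BL/6J reference sequence, and is 1 of 2 such windows for the gene, the other (chr16:22919972-22920221) holding 0 matches to the motifs searched; capitals mark a TATA box (TATAAA) at 31 bases before the start and a CCAAT box read on the other strand (ATTGG) at 218 before it.
Fetub: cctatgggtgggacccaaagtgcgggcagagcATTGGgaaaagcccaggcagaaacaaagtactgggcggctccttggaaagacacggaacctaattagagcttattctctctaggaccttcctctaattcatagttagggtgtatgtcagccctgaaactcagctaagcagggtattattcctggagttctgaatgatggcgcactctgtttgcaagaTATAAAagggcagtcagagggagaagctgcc
The 2 motifs do not overlap. The GENCODE start of Fetub printed above (22918334) lies within this window, ahead of the TATA match. Searched on both strands, TATAAA was in 12.4% and CCAAT in 33.8% of 32817 windows of the same length. The window holds 0 matches to the nuclear receptor motif AGGTCA (14% of windows) or the E-box CACGTG (6.02%), which says only that these letters are not in it. Sequence of the other strains was not analysed here.

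Of the 2 carrier proteins, Rbp4 (chr19:38116629-38125281, minus strand) fell modestly in 4 of the 7 strains. In A/J the CD mice ran from 2874 to 3435 CPM (median 2951) and the WD mice from 2075 to 2524 (median 2249). In 129S1/SvImJ the ranges were 2538 to 3338 on CD and 2184 to 2487 on WD. Both strains showed no overlap between diets. PWK/PhJ went from 1971 to 3136 on CD (median 2634) to 1710.2 to 2518 on WD (median 2110.1), and DBA/2J from 2024 to 2773 (median 2318) to 1697 to 2281 (median 1874), both with overlap. The fold changes were -0.41 in A/J (SE 0.09, adjusted p = 0.00186), -0.30 in PWK/PhJ (0.00514), -0.29 in DBA/2J (0.0118) and -0.25 in 129S1/SvImJ (0.0232, lost with upper-quartile scaling at 0.0865). WSB/EiJ (-0.23, adjusted p = 0.0951), CAST/EiJ (-0.15, 0.176) and C57BL/6J (-0.13, 0.216) were not called. In 14 of 15 strata the WD mean was the lower. WSB/EiJ had the highest CD level (3649 ± 183 CPM, SD, n = 6), above A/J (adjusted p = 0.0188), and no other pair of neighbours in the order was called. WSB/EiJ and A/J shared no cohort.

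Of genes that handle retinoids, 22 were tested from a list of 25. In C57BL/6J, 7 fell and 1 rose (11.9% and 14.3% of all genes), and in PWK/PhJ 7 and 4 (14.5% and 15.1%). DBA/2J had 5 lower and 3 higher (7.77% and 10.2%), and CAST/EiJ 5 and 2 (9.73% and 9.77%). A/J had 2 and 2 (4.64% and 4.39%), and 129S1/SvImJ 1 and 2 (13.6% and 14.5%). In WSB/EiJ 4 fell (3.97%) and 0 rose (4.97%). Several of these counts lay near or below the share of all genes. Rdh11, a retinal reductase also under SREBP control, fell in all 7 strains, from -0.98 in DBA/2J to -1.81 in C57BL/6J. Aldh1a1, which makes retinoic acid, rose in 4 (C57BL/6J, DBA/2J, A/J and 129S1/SvImJ). Of 9 negative acute phase proteins, a class that holds Rbp4 and Ahsg, 7 fell in PWK/PhJ, 6 in A/J and 1 in CAST/EiJ. The shares of all genes that fell were 14.5%, 4.64% and 9.73%. The genes most like Rbp4 within groups were the mitochondrial enzymes Marc2 (r = 0.81) and Acaa2 (0.744).

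Selenop (chr15:3268547-3280508, plus strand) had the narrowest span of strain means of the 8. Its coding sequence (transcript Selenop-201) has 380 codons before the stop, and 10 of them are in-frame TGA, the triplet that selenoprotein P reads as selenocysteine. In DBA/2J it rose from 4873, 5209 and 6001 CPM (lowest, median, highest) to 5498, 6245 and 6609 (0.24, SE 0.06, adjusted p = 0.00185). In WSB/EiJ it fell from 7816, 7994 and 8626 to 5914, 7246 and 7649.7 (-0.20, SE 0.06, adjusted p = 0.0221; lost in a fit of WSB/EiJ alone, 0.111). The WSB/EiJ diets did not overlap, whereas in DBA/2J 1 CD mouse reached into the WD range. In the other 5 strains the estimates ran from -0.11 in CAST/EiJ to 0.09 in C57BL/6J, none called. The response of DBA/2J differed from the mean of the others (0.30, SE 0.06, adjusted p = 0.00117). On CD, DBA/2J (5269 ± 395 CPM, SD, n = 6) was the lowest strain and WSB/EiJ (8094 ± 326, n = 6) the highest; group means spanned 1.54-fold on CD and 1.28-fold on WD.

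Ccdc152 lies on the other strand and shares 439 exon bases with Selenop. Its group means were 5.41 to 10.8 CPM against 5269 or more for Selenop, and it rose in DBA/2J as Selenop did (0.53, adjusted p = 0.000542), while it fell in C57BL/6J (-0.28) and 129S1/SvImJ (-0.35), where Selenop was not called. Whether reads of the shared bases were assigned by strand is not stated in the sources used here, and the part of shared reads was not tested. Of 28 selenoproteins and genes of the selenocysteine machinery, 3 to 7 rose and 1 to 7 fell per strain. Of all genes, 4.39% to 15.1% rose and 3.97% to 14.5% fell per strain, so several of these counts lay near that share. Selenow, a small redox selenoprotein, rose in all 7 strains (0.24 in C57BL/6J to 0.79 in PWK/PhJ), and Dio1, which activates thyroid hormone, rose in 3 and most in PWK/PhJ (3.73). Lrp8, a receptor for selenoprotein P, rose in 129S1/SvImJ (1.50).

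Lect2 (chr13:56542464-56548502, minus strand) was the only one of the 8 that was higher on WD in most strains. Its promoter is shown since hepatic Lect2 is a textbook beta-catenin target and the window holds a match to the TCF/LEF motif. It covers the 250 bases before the RefSeq start on GRCm38.p6, chr13:56548539-56548788, minus strand, in the C57BL/6J reference; capitals mark the TCF/LEF motif (ATCAAAG) at 32 bases before the start and an HNF1 motif (GTTAAT) at 78.
Lect2: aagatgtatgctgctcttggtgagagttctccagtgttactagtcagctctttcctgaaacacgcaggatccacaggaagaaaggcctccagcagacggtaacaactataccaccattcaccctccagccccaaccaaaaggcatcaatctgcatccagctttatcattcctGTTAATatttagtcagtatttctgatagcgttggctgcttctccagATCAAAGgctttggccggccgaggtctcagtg
The motifs do not overlap. ATCAAAG was in 3.21% and GTTAAT in 6.44% of the 32817 windows on either strand, and among the members' windows ATCAAAG was also found before Rbp4; a match is a description and not a site.

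In CAST/EiJ, Lect2 rose from 63.0, 77.7 and 91.2 CPM (lowest, median, highest) to 109, 122 and 164. In DBA/2J it rose from 70.1, 75.4 and 98.5 to 109, 119 and 137. In 129S1/SvImJ it rose from 81.8, 100.2 and 111 to 114, 145 and 154. In all 3 strains the lowest WD mouse lay above the highest CD mouse. The fold changes were 0.72 (SE 0.13, adjusted p = 1.23e-05), 0.58 (SE 0.14, 0.000994) and 0.51 (SE 0.14, 0.0031). Without the 3 libraries closer to the other diet the CAST/EiJ rise was 0.73 (adjusted p = 8.87e-06). Smaller rises with overlapping diets were called in WSB/EiJ (0.42, 0.0447) and C57BL/6J (0.40, 0.00846; 0.51 and 0.000548 without those libraries). Fits of those strains alone lost both calls (0.161 and 0.139), and the WSB/EiJ call was also lost without the count filter (0.207) and, narrowly, without 1 A/J CD mouse (0.0501).

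In A/J and PWK/PhJ no rise was called. A/J CD mice held 90.1, 91.9, 108, 98.5 and 85.0 CPM and WD mice 88.6 to 96.8 (-0.04, 95% interval -0.33 to 0.25). PWK/PhJ ran from 76.7 to 103 on CD and from 77.2 to 105 on WD (-0.11, 95% interval -0.38 to 0.16). Against the mean of the other 6 strains, PWK/PhJ lay at -0.54 (SE 0.15, adjusted p = 0.00601) and CAST/EiJ at 0.42 (SE 0.14, 0.0265; 0.0624 without the count filter, and 0.42 with 0.0227 without the 3 libraries), and A/J was not called (-0.46, 0.239). Lect2 is counted among the pericentral beta-catenin targets. Of 16 such genes, 7 rose and 1 fell in CAST/EiJ (median 0.41), and 4 fell in PWK/PhJ (median -0.15). Lect2 also rose in C57BL/6J (3 of the 16 rose and 6 fell), DBA/2J (2 and 2), 129S1/SvImJ (3 and 3) and WSB/EiJ (2 and 0). In A/J 0 rose and 2 fell. Per strain, 4.39% to 15.1% of all genes rose and 3.97% to 14.5% fell. Notum, a secreted Wnt inhibitor induced by beta-catenin, rose in CAST/EiJ (0.70) and fell in C57BL/6J, DBA/2J, 129S1/SvImJ and PWK/PhJ, and the ammonium transporter Rhbg rose in 4 strains but not in CAST/EiJ (-0.23). Fbxl21, 4565 bases away on the other strand, rose in CAST/EiJ (0.71, adjusted p = 0.0274) and fell in PWK/PhJ (-0.57, 0.0102). Within groups Lect2 was most like Agxt2 (r = 0.652), a mitochondrial aminotransferase.

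Enho (chr4:41638144-41640324, minus strand) had the widest range of the 8 genes. Its coding sequence, printed because the gene encodes so short a peptide, spans chr4:41638612-41638842 (GRCm38, minus strand) in 1 exon of transcript Enho-201, with 76 codons before the stop; capitals mark the start and stop codons.
Enho: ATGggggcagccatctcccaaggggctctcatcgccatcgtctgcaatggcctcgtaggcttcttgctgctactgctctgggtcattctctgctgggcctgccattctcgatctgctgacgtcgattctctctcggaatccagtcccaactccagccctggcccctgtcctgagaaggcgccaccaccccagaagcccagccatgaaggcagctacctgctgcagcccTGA
On CD the mean level was 41.0 ± 5.33 CPM in A/J (SD, n = 5), 36.5 ± 7.88 in DBA/2J (n = 6) and 35.8 ± 9.33 in WSB/EiJ (n = 6). It was 16.3 ± 5.16 in 129S1/SvImJ (n = 7), 10.6 ± 4.63 in C57BL/6J (n = 8), 3.19 ± 2.13 in CAST/EiJ (n = 7) and 0.273 ± 0.0519 in PWK/PhJ (n = 6). No difference was called between neighbours among the 3 highest strains, and each further step was called: WSB/EiJ above 129S1/SvImJ (adjusted p = 7.80e-05), 129S1/SvImJ above C57BL/6J (0.0259), C57BL/6J above CAST/EiJ (1.07e-05) and CAST/EiJ above PWK/PhJ (0.000374). From A/J to PWK/PhJ the means differed 150-fold, on 1589 to 2122 reads per mouse in A/J and 10 to 17 in PWK/PhJ. How far sequence differences from the reference lowered the counts of PWK/PhJ and CAST/EiJ was not tested.

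WD lowered Enho in 5 strains. C57BL/6J went from 6.11, 9.98 and 19.3 CPM (lowest, median, highest) on CD to 0.465, 0.710 and 6.10 on WD, and 7 of the 8 WD mice were at or below 1.65 while the eighth came up to just under the lowest CD mouse. 129S1/SvImJ went from 10.6, 15.5 and 24.2 to 1.90, 3.23 and 5.13. DBA/2J went from 26.6, 35.9 and 47.0 to 7.93, 15.5 and 18.1. In these strains and in A/J, with 38.3, 48.6, 40.9, 43.0 and 34.3 CPM on CD and 4.83 to 31.3 on WD, the diets did not overlap. WSB/EiJ (27.6 to 52.4 on CD, 9.83 to 34.6 on WD) overlapped. CAST/EiJ had 1.14 to 6.03 and 0.531 to 2.89, also with overlap, and PWK/PhJ had 0.211 to 0.360 and 0.140 to 0.438.

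The fall was largest in C57BL/6J (-3.27, SE 0.44, adjusted p = 1.10e-08), followed by 129S1/SvImJ (-2.31, SE 0.36, 6.86e-07), A/J (-1.94, SE 0.28, 7.77e-07), DBA/2J (-1.37, SE 0.25, 2.36e-05) and WSB/EiJ (-0.89, SE 0.26, 0.0155). C57BL/6J alone was called against the mean of the other 6 (-1.95, SE 0.49, adjusted p = 0.00938). That mean includes PWK/PhJ, where Enho had 7 to 23 reads per mouse. Without the 3 libraries the C57BL/6J values were -3.11 (adjusted p = 2.09e-08) and -1.86 (0.00941). WSB/EiJ was lost with edgeR (-0.77, adjusted p = 0.201), DESeq2 (-0.77, 0.253) and a fit of that strain alone (-0.90, 0.0638). CAST/EiJ (-1.26, SE 0.54, 0.0927) passed with edgeR (-1.29, 0.0117) and DESeq2 (-1.29, 0.00597), and was -0.88 (0.289) without the 3 libraries. In PWK/PhJ (-0.12, 95% interval -2.08 to 1.83) a change of the size seen in WSB/EiJ was not detectable at this depth. By cohort, the WD mean was lower in 14 of 15 strata.

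The genes on the other strand at the same place also fell in several strains. Dnaic1, a dynein chain of motile cilia, shares 15 exon bases with it, and the antisense transcript Gm12406 shares 0. Dnaic1 went from 12.3 to 1.33 CPM in DBA/2J (-3.16, SE 0.34, adjusted p = 1.38e-11), from 12.8 to 1.41 in A/J (-3.64, SE 0.38, 1.90e-11) and from 4.03 to 1.64 in WSB/EiJ (-1.87, SE 0.42, 0.00113). In C57BL/6J it went from 0.685 to 0.0675 (-3.40, SE 0.75, 0.000279) and in 129S1/SvImJ from 0.713 to 0.0636 (-3.39, SE 0.87, 0.00173). It stood at 0 to 6 reads per mouse in CAST/EiJ and PWK/PhJ, where Enho was low too. Dnaic1 thus had Enho's order of strain means on CD and fell in the same 5 strains, and over the 14 group means their r was 0.906 (0.607 over the 93 mice after subtracting group means; points share library and depth). Gm12406 fell in C57BL/6J (-2.08), DBA/2J (-1.22), A/J (-3.53) and 129S1/SvImJ (-3.50), and was at 0 reads in all PWK/PhJ mice. Of the flanking genes, Cntfr had estimates of -0.34 to 0.07 (adjusted p of 0.204 or more) and Fam219a was called in DBA/2J alone (-0.33). On CD, Dnaic1 held 240 to 1062 reads per mouse in DBA/2J and 443 to 735 in A/J. Whether reads of one gene were counted for the other was not tested.

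**Figure D4:**
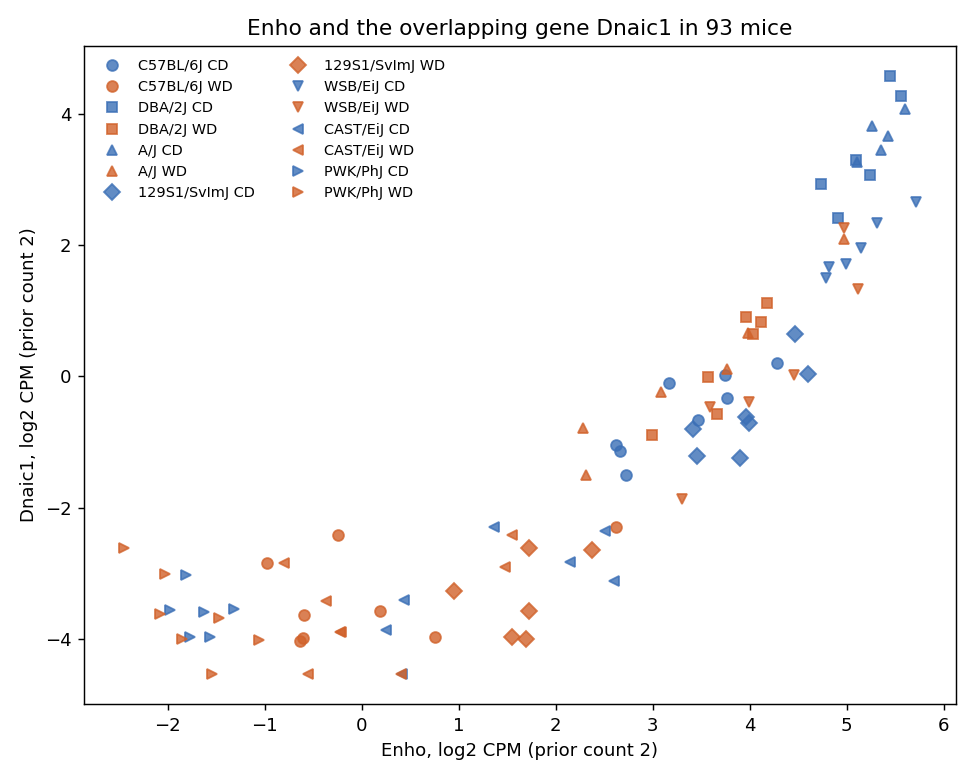
Enho (horizontal axis) against the overlapping gene Dnaic1 (vertical axis) in each of the 93 mice, both as log2 CPM with a prior count of 2; symbols mark strains, blue CD and orange WD. Mice on CD of DBA/2J, A/J and WSB/EiJ sit at the top right, WD mice of the same strains lie lower on the same course, and PWK/PhJ and CAST/EiJ mice of both diets sit at the bottom left.

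Enho is known to follow the circadian clock in liver, so 19 clock genes were examined. In C57BL/6J 8 rose and 5 fell. DBA/2J had 4 higher and 5 lower, A/J had 1 higher and 2 lower, and the other 4 strains had at most 2 higher and 1 to 3 lower. Among all genes, 4.39% to 15.1% were higher and 3.97% to 14.5% lower per strain. Arntl, the positive limb of the clock, fell in C57BL/6J (-1.37), DBA/2J (-1.59) and A/J (-2.01), and its repressor Ciart rose in the same 3 (2.35, 2.31 and 1.24). In 129S1/SvImJ and WSB/EiJ, where Enho fell as well, Arntl and Ciart were not called. Within groups r of Enho was -0.064 with Arntl and 0.154 with Nr1d1, and the genes most like it were Aph1b (0.678), a gamma-secretase subunit, and the lipoprotein carrier Apom (0.636).

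Levels differed between strains for all 8 genes on CD (F test, 93.7% of all genes called) and all 8 on WD (93.9%). No cohort held every strain, and those of WSB/EiJ held no other, so strain and cohort cannot be fully told apart in these levels. Of the 21 pairs of strains on CD, where 48% of all gene and pair tests were called, Enho differed in 18, Fetub in 17, Selenop in 14, Rbp4 in 12, Ahsg in 11, Lect2 in 9, Angptl4 in 8 and Angptl8 in 6. Enho, Fetub and Selenop lay furthest above that share and Angptl8 furthest below it. The ratio of the highest to the lowest strain mean on CD was 150 for Enho, 4.78 for Fetub, 4.66 for Angptl8, 2.15 for Angptl4 and 1.54 to 1.69 for the other 4. WSB/EiJ had the highest CD mean for Ahsg, Selenop, Rbp4 and Angptl8 and the lowest for Lect2. For Angptl8 that mean was raised by the mice of 1 cohort, at 172 and 302 CPM. The WSB/EiJ median of 85.9 CPM lay below the 127 of A/J, and this pair was not called. The strain differences on WD for Angptl8 were lost with edgeR (adjusted p = 0.0529). Among the 8 genes themselves, the highest r over the 14 group means was 0.838 for Ahsg with Rbp4, yet over the 93 mice within groups it was -0.13, and the highest within groups was 0.469 for Ahsg with Enho; points share library, depth and liver composition.

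Genes listed as receptors of these proteins were also examined. Of 11 tested from a list of 13, 3 rose in each of C57BL/6J, 129S1/SvImJ and CAST/EiJ (against 14.3%, 14.5% and 9.77% of all genes), 2 in WSB/EiJ (4.97%) and PWK/PhJ (15.1%) and at most 1 in the others, and at most 1 fell per strain, with Ntrk2 higher in WSB/EiJ (2.30) and CAST/EiJ (1.08) and Cd209a higher in C57BL/6J (0.68) and 129S1/SvImJ (1.65). Of 27 other secreted liver proteins, 8 rose and 8 fell in C57BL/6J, 5 and 6 in PWK/PhJ, and 6 fell in CAST/EiJ. The matching shares of all genes were 14.3% and 11.9%, 15.1% and 14.5%, and 9.73%. Lcn2, an iron-binding acute phase protein, rose in all but CAST/EiJ, and Gpnmb, a protein of lipid-laden macrophages, rose in 4. Positive acute phase proteins rose for 11 of 18 genes in C57BL/6J, 8 in 129S1/SvImJ and PWK/PhJ, 7 in DBA/2J and at most 4 in each of the other 3 strains, with Orm3 and Lcn2 higher in 6 strains each. Per strain 4.39% to 15.1% of all genes rose.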

How the data were processed

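RNA-seq reads of whole liver from 93 mice were processed by the authors, who mapped them with STAR 2.7.1a to GRCm38 (mm10), the C57BL/6J genome, for every strain, and deposited raw counts of reads per gene. The annotation release and the strand setting are not given in the sources used here. Samples were grouped by strain and diet from their labels, 14 groups of 5 to 8 mice, each mouse being 1 replicate. The 53465 genes were filtered with filterByExpr (minimum count 10), which kept 19110, scaled by TMM (edgeR 4.0.16) and fitted with limma-voom (limma 3.58.1, R 4.3.3) on the 14 group means, with Benjamini-Hochberg adjustment within each contrast and a threshold of 0.05. All p-values are two-sided. CPM values are TMM-scaled, and log2 CPM used a prior count of 2. The scripts were tested on simulated data. At 40020424 to 49894856 reads per library, Enho had 7 to 2218 reads per mouse and the other 7 genes at least 137. Alternatives were edgeR's quasi-likelihood test, DESeq2 1.42.0 (an adjusted p given as NA stayed NA), other scaling and filters, cohort or RIN in the model, sample quality weights, separate fits per strain and leaving out mice.

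The members and gene lists were chosen with earlier results of these data known. Genes named beside the 8 were taken by the rules below or else picked by name. Per list, the rule took the 3 with the largest absolute mean log2 fold change over the strains among those called in at least 1 strain. For each of the 8, the 3 genes with the highest Pearson r over the 14 group means were taken. So were the 3 with the highest r over the 93 mice after subtracting group means. Both came from 11147 genes whose log2 CPM averaged 1 or more. Overlapping or neighbouring genes were also taken. Genes picked by name include Nr1d1 and Adipoq, each given with an r to 1 of the 8. No diet effect was called for either. Coordinates are from GENCODE vM21 (GRCm38), and windows before start sites from RefSeq (GRCm38.p6), with 6 of the 8 genes matched. The table's 4 summary lines, which hold unmapped reads (1.66% to 14.8% of a library) and other reads assigned to no gene, were left out of tests and library sizes. Values of a few single genes that these rules name are not reported here.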

Additional observations from a re-analysis of the deposited data

Results flagged for a closer look

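A single mouse lay far from the others of its group, by Dixon's criterion at 95%, in 12 of the 112 groups of gene, strain and diet, where chance gives about 1 in 20 groups (5%). The highest mouse stood apart for Angptl4 on WD in A/J (127 CPM, next 96.7) and in 129S1/SvImJ (174, next 106), for Angptl8 in CAST/EiJ on CD (110.2, next 32.9), and for Fetub in WSB/EiJ on WD (2217, next 1138) and in CAST/EiJ on CD (2702, next 2047). It did so as well for Ahsg in C57BL/6J on CD (14056 CPM, next 8966), Enho in C57BL/6J on WD (6.1, next 1.65), Selenop in 129S1/SvImJ on CD (6600.2, next 5856) and Rbp4 in A/J on CD (3435, next 2954). The lowest mouse stood apart for Angptl8 in A/J on CD (104 CPM, next 125), Lect2 in 129S1/SvImJ on WD (114, next 142) and Rbp4 in 129S1/SvImJ on WD (2184, next 2422). The libraries behind the Ahsg value in C57BL/6J and the Angptl8 value in CAST/EiJ are 2 of the 3 that correlated better with the other diet of their strain. Their mean r with that diet was only -0.0711 and 0.00289.

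The diet effect differed between the 7 strains by the limma-voom F test for Angptl8 (adjusted p = 0.000214), Selenop (0.000394), Lect2 (0.00122), Enho (0.00343) and Ahsg (0.0274). For Angptl8 the estimates ran from -2.22 in WSB/EiJ to 1.23 in CAST/EiJ, and for Lect2 from -0.11 in PWK/PhJ to 0.72 in CAST/EiJ. For Selenop they ran from -0.20 in WSB/EiJ to 0.24 in DBA/2J, for Enho from -3.27 in C57BL/6J to -0.12 in PWK/PhJ, and for Ahsg from -0.67 in A/J to -0.17 in CAST/EiJ. The Enho value of PWK/PhJ had an SE of 0.997 at 7 to 23 reads per mouse, so a fall there could have gone unseen.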

How the results depend on the processing

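The diet effects of Ahsg in 6 strains, of Enho in C57BL/6J, DBA/2J, A/J and 129S1/SvImJ, of Angptl8 in C57BL/6J, 129S1/SvImJ and WSB/EiJ, of Lect2 in DBA/2J, 129S1/SvImJ and CAST/EiJ, of Fetub in PWK/PhJ, of Selenop in DBA/2J, and of Rbp4 in DBA/2J, A/J and PWK/PhJ were called under every alternative that gave them. A requirement of at least 10 counts in every mouse gave no value for Enho. The direction turned, always without a call, for Angptl4 in C57BL/6J (0.23) with edgeR (-0.046), DESeq2 (-0.032), sample quality weights (-0.14), without the 3 mice closer to the other diet (-0.17) and on leaving out single mice (-0.17 to 0.26, the lowest without C57BL/6J CD replicate 2), for Lect2 in A/J on leaving out single mice (-0.067 to 0.018, the highest without A/J CD replicate 3) and for Selenop in 129S1/SvImJ with upper-quartile scaling (0.022); the cause was not tested.

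Counts of called genes moved by over 1.5 times as follows. A separate fit per strain, with fewer samples, gave 0 higher in C57BL/6J, 2 lower and 0 higher in WSB/EiJ, and 1 higher in CAST/EiJ. Testing all genes with any count gave 0 higher in WSB/EiJ and 0 lower and 1 higher in CAST/EiJ. In CAST/EiJ edgeR and DESeq2 gave 2 lower and 1 higher, and cohort or RIN in the model gave 1 higher. Leaving out 1 mouse gave 0 to 1 higher in WSB/EiJ and 1 to 2 higher in CAST/EiJ. The test for unequal diet effects was also called for Fetub with sample quality weights (adjusted p = 0.0232) and was lost for Ahsg with any count (0.0771). Fetub in C57BL/6J, A/J and WSB/EiJ passed with quality weights (0.0145, 0.00369 and 0.00241). The alternatives that leave out C57BL/6J, CAST/EiJ or WSB/EiJ mice were chosen after seeing the data. Depth limits Enho in PWK/PhJ (7 to 23 reads per mouse). No paired analysis was possible because the labels give no replicate numbers and numbering followed the order of the samples.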

Other observations

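Over the 14 group means Ahsg was most like Apoa1 (r = 0.96), the main HDL protein, Sdhd (0.942) and Wbp4 (0.941), Fetub like Ttc1 (0.957), Pcgf5 (0.954) and Dnajc11 (0.951), and Enho like Pds5a (0.958) and Styx (0.952). Angptl4 was most like the aminotransferase Got1 (0.915), the insulin receptor substrate Irs2 (0.913) and Dhx15 (0.907), and Angptl8 like Gm37072 (0.892) and the lipogenic regulator Mid1ip1 (0.891). Lect2 was most like Ift52 (0.888), Tmem250-ps (0.858) and Mlst8 (0.853), Selenop like Sirt2 (0.888), Gm4366 (0.875) and Ubl4a (0.836), and Rbp4 like Dnajc25 (0.926), Syf2 (0.912) and Eif2a (0.898). Within groups the remaining genes of the 3 highest were Spc24 (0.629) and Slc47a1 (0.636) for Lect2, Pbxip1 (0.615) for Enho, Ephx2 (0.711) for Rbp4, and Mfsd1 (0.523), Nipsnap3b (0.491) and Glod4 (0.491) for Selenop. With 14 points and 11147 candidate genes, high values of r over group means arise for many genes, and no p is given.

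Stellate cell and fibroblast markers were higher on WD for 6 of 12 in C57BL/6J and PWK/PhJ and 5 in 129S1/SvImJ, with Col1a1, a fibrillar collagen, at 1.93, 4.01 and 3.44. The shares of all genes that were higher were 14.3%, 15.1% and 14.5%. In these 3 strains Gpnmb and Trem2, both of lipid-associated macrophages, were also higher, Trem2 by 1.55, 6.01 and 4.52.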
